A study of Homo sapiens with 16 samples.

Results

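The full-length transcript models of HEK-293T and HT-1080 cells under control conditions were compared, as listed by IsoSeq, which sequences whole cDNA molecules from end to end so that every exon of a transcript is read together. The members were the 2 IsoSeq pools of cells given the negative control RNA, out of 16 samples in the series, 1 pool for each line. HEK-293T is a line from human embryonic kidney with an integrated SV40 large T antigen. HT-1080 is a fibrosarcoma line. Cells of each line had been transfected at 20 nM with the control small interfering RNA (siNegative), and RNA was taken after 48 h, with replicates pooled for IsoSeq. The series also holds an IsoSeq pool of each line transfected with an siRNA against HNRNPH1 (siHNRNPH1) and 12 short-read libraries, of which the 6 siNegative libraries, 3 biological replicates per line, were used here as a second assay. The IsoSeq lists hold no read counts, so the depth of each pool is unknown, a model counts once whatever its abundance, and nothing was tested between the pools. Models on chromosomes X and Y (2988 in HEK-293T and 2343 in HT-1080) and on the mitochondrial chromosome were left out. That left 61683 autosomal models in HEK-293T and 69630 in HT-1080.

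A transcript model is a set of exons on 1 strand. Its first exon follows the promoter that started transcription, its last exon carries the site of polyadenylation, and each intron is defined by a donor site at its upstream end and an acceptor site at its downstream end. Kidney-derived HEK-293T cells are known for a mixed expression of neuronal and embryonic genes, and HT-1080 cells for the matrix, adhesion and protease genes of mesenchymal tumours. A gene that only 1 line transcribes gives models in that line only, whereas a gene used in both lines can differ in its start, its splicing or its end.

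The pools differed in the lengths they covered. The median model length, the sum of its exons, was 3244 bases in HEK-293T (quartiles 2592 and 4017) and 2717 bases in HT-1080 (quartiles 2008 and 3526). Models under 1500 bases made up 1.47% of the HEK-293T list and 12.5% of the HT-1080 list. Models over 5000 bases were 8.11% and 4.49%. The siHNRNPH1 pools showed the same split by line, with 1.57% under 1500 bases in HEK-293T and 12.1% in HT-1080, so short models were scarce in both HEK-293T pools. The difference in length therefore went with the cell line in all 4 pools, and preparation and cell line cannot be told apart. Exon number was closer, with a median of 11 for HEK-293T models and 10 for HT-1080 models, and models of a single exon were 1.37% and 1.43%.

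**Figure D1:**
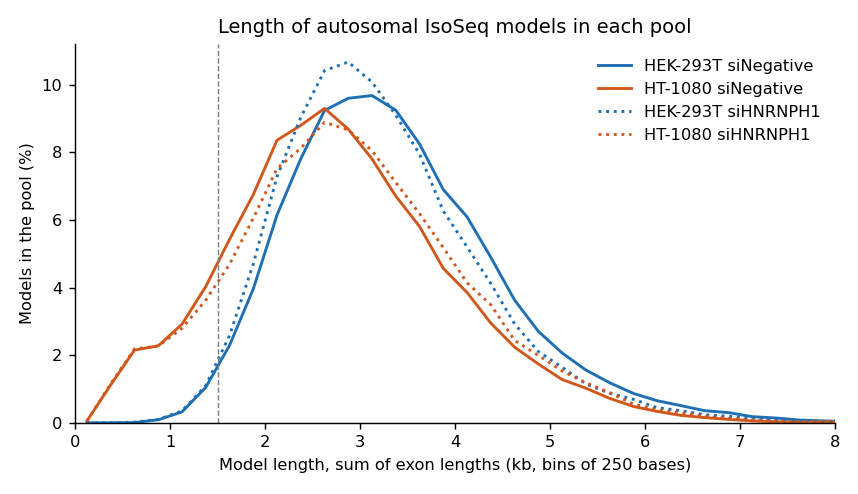
Share of autosomal models in each pool (y axis, percent) by model length (x axis, kilobases, bins of 250 bases). Solid lines are the siNegative pools, dotted lines the siHNRNPH1 pools, and the dashed line marks 1500 bases, below which the HEK-293T pools hold 1.47% and 1.57% of their models and the HT-1080 pools 12.5% and 12.1%.

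Genes with short HT-1080 models often had no HEK-293T model although HEK-293T reads were present. Among genes of at least 50 CPM (counts scaled to the library's total) in the HEK-293T short reads whose HT-1080 models had a median under 1000 bases, 132 of 256 (51.6%) had a HEK-293T model. The share was 79.4% of 321 genes from 1000 to 1500 bases and 94.3% of 522 genes from 1500 to 2000 bases. Above that it lay between 95.4% and 96.2%. In the reverse direction, the HT-1080 pool had models for 98.2% to 100% of such genes in every length class, of which the class under 1000 bases held only 16 genes. The length of the transcripts that HEK-293T makes from these genes was not measured, and the part of length in the missing models was not tested.

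**Figure D2:**
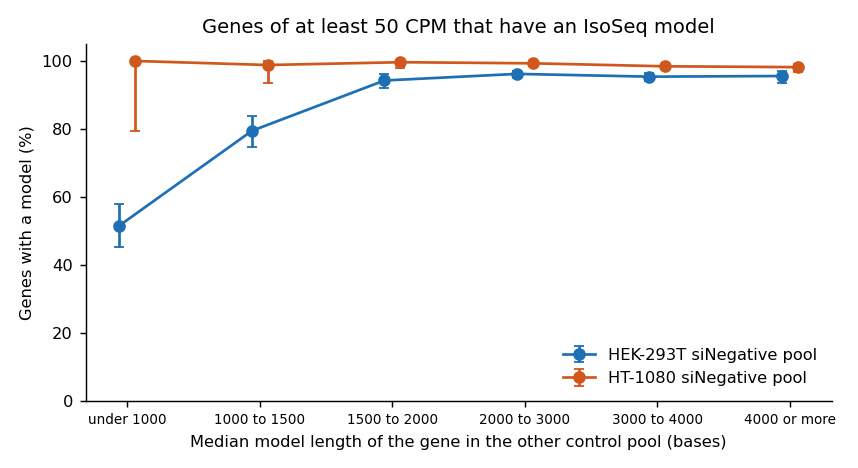
Share of genes at 50 CPM or more in a line's short reads that have at least 1 model in that line's siNegative pool (y axis, percent), by the median model length of the gene in the other line's pool (x axis). Points are shares with exact Clopper-Pearson 95% intervals, which fall to 51.6% for HEK-293T in the shortest class and stay at 98.2% or above for HT-1080.

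The share with models also rose with level. Of protein-coding genes under 1 CPM, 1.13% had a model in HEK-293T and 1.33% in HT-1080. Between 5 and 10 CPM the shares were 46.2% and 74.1%, and at 100 CPM or more 93.4% and 98.4%. HT-1080 had the higher share in each of the 6 classes of level, with exact 95% intervals that overlapped only under 1 CPM.

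Most loci were common to both lines, and whole intron chains mostly were not. A locus here is a group of models on 1 strand whose exons overlap. The HEK-293T pool listed 8937 loci and the HT-1080 pool 10361, with 7628 in both, which is 85.4% of the first list and 73.6% of the second. Of 111319 and 119174 distinct introns, 86880 were shared (78.0% and 72.9%). First exons, identified by their donor site, numbered 20542 and 23512, with 11614 shared (56.5% and 49.4%). Last exons, identified by their acceptor site, numbered 13612 and 15842, with 9377 shared (68.9% and 59.2%). Complete intron chains numbered 42400 and 46479, with 18579 shared (43.8% and 39.97%). The shared fraction thus fell from loci to introns to last exons to first exons to chains, in the same order in both lists.

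**Figure D3:**
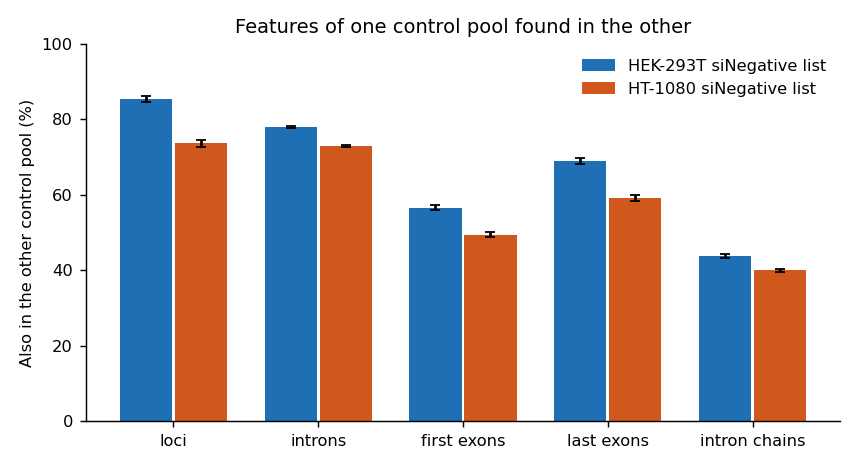
Share of each siNegative list that is also in the other line's siNegative list (y axis, percent), for loci, introns, first exons, last exons and intron chains. Error bars are exact Clopper-Pearson 95% intervals, and the shares run from 85.4% for HEK-293T loci down to 39.97% for HT-1080 chains.

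Features of 1 pool rested on few models. A single model carried 64.2% of the introns found in HEK-293T only and 56.3% of those found in HT-1080 only. For first exons these shares were 82.0% and 74.7%, and for chains 91.1% and 88.1%. With only features of at least 2 models in their own pool, 91.0% of HEK-293T loci and 80.9% of HT-1080 loci were shared, and for chains 76.9% and 69.2%. Among models of at least 1500 bases alone, the lists came closer to each other, at 82.8% and 78.5% for loci and 54.8% and 54.3% for first exons.

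Loci of 1 line had a single model more often than shared loci. Counted within 1 pool, shared loci with a single model were 17.0% for HEK-293T and 10.7% for HT-1080. The 1309 loci of HEK-293T only held 3210 models (5.20% of its list), and 685 of these loci (52.3%) had a single model. The 2733 loci of HT-1080 only held 8991 models (12.9% of its list), and 1124 (41.1%) had a single model. Their models differed in length as the pools did, with 0.561% under 1500 bases in the HEK-293T loci and 26.96% in the HT-1080 loci. The part of length in the HT-1080 count was not tested.

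The siHNRNPH1 pools gave a second look at each line, with the reservation that the cells had been treated differently. Loci were rebuilt over all 4 pools for this, which left 1284 loci of HEK-293T only and 2683 of HT-1080 only. Of the loci found in HEK-293T only, 80.4% were found again in the HEK-293T siHNRNPH1 pool and 18.8% in the HT-1080 siHNRNPH1 pool. Of those found in HT-1080 only, 79.2% were found again in the same line and 25.4% in the other line. Introns of 1 control pool recurred at 65.8% in the same line for both lists, against 19.9% and 24.3% in the other line. Intron chains recurred least, at 45.6% and 41.2% against 14.1% and 19.9%. In all 5 kinds of feature and both lists the same line held more of them than the other line. The siHNRNPH1 pools differed in size, with 90456 autosomal models in HEK-293T and 65595 in HT-1080. Both HEK-293T pools also held few models under 1500 bases. The part of pool size and model length in these shares was not tested. Of the introns in at least 2 models of 1 control pool, 90.1% (HEK-293T) and 90.4% (HT-1080) were in the same line's siHNRNPH1 pool.

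**Figure D4:**
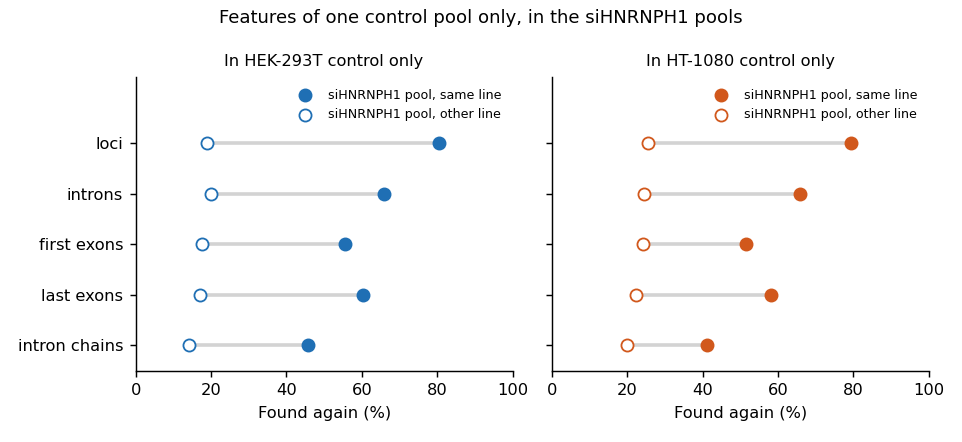
Features found in 1 siNegative pool only (left HEK-293T, right HT-1080) that were found again in a siHNRNPH1 pool (x axis, percent). Filled points are the siHNRNPH1 pool of the same line and open points that of the other line, and each filled point lies to the right of its open point, for loci at 80.4% against 18.8% and 79.2% against 25.4%.

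By chromosome, the models of HT-1080 leaned towards chromosome 19, with 4.57% of its list against 3.15% in HEK-293T, a ratio of 1.45. Chromosome 20 had a ratio of 1.30 and chromosome 11 one of 1.23. The lowest ratios were 0.77 for chromosome 4 and 0.78 for chromosome 6. The siHNRNPH1 pools leaned the same way on chromosome 19, with 3.36% for HEK-293T and 4.78% for HT-1080. Those pools differed in model length by line as the control pools did. The part of model length in the chromosome shares was not tested.

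Models were then named by the annotated gene they overlapped best on their strand, which named 98.98% of HEK-293T models and 98.8% of HT-1080 models. Both pools had models of 7602 genes. HEK-293T alone had models of 1143 genes (1016 protein-coding and 127 long noncoding), and HT-1080 alone of 2509 genes (2276 and 233). The same line's siHNRNPH1 pool also had models for 83.0% of the HEK-293T genes and 82.9% of the HT-1080 genes, against 19.9% and 27.4% in the other line's. The short HT-1080 models bear on these classes, since 37.7% of the genes of HT-1080 only had a median model length under 1500 bases, against 0.921% of those of HEK-293T only.

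The short reads measured most of these genes in both lines. With edgeR's quasi-likelihood test on the 6 siNegative libraries, 86.6% of 19776 tested genes differed between the lines at an adjusted p under 0.05, 40.8% higher in HT-1080 and 45.8% higher in HEK-293T. So a difference as such says little about a gene, and its direction and size were read instead. Cell line, sequencing depth (111.1 to 121.03 M counts per HEK-293T library, 27.3 to 30.3 M per HT-1080 library, where M is mega) and deposited table cannot be told apart. Fewer transcribing cells and less RNA per cell cannot be told apart either. Genes with models in both lines split near the background, with 42.8% higher in HT-1080 and 45.8% higher in HEK-293T and a median log2 fold change (HT-1080 minus HEK-293T) of -0.03. The median over all tested genes was -0.10.

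Genes of 1 line only leaned towards that line. Of the 1143 genes of HEK-293T only, 1070 passed the filter on low counts, and 956 of them (89.3%) were higher in HEK-293T, 61 higher in HT-1080 and 53 not called. A difference of at least 2-fold towards HEK-293T was called in 830 (77.6%), against 27.9% of all tested genes. Their median log2 fold change was -3.17, or -2.99 when genes with at most 3 HT-1080 counts were set at that floor. Of the 2509 genes of HT-1080 only, 2387 passed the filter, and 1754 (73.5%) were higher in HT-1080, 433 (18.1%) higher in HEK-293T and 200 not called, with a median of 1.14. Here 1270 (53.2%) were called at least 2-fold higher in HT-1080, against 25.3% of all tested genes. A gene that reached the filter through 1 line had to differ, so these counts are a description.

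The genes of HT-1080 only were of mixed kinds. In 1219 of them (50.6% of those matched to the short reads) the HEK-293T short reads reached 10 CPM or more, and 46.8% of these had a median model length under 1500 bases. The HEK-293T siHNRNPH1 pool did list models for 456 of the 1219. By contrast, 550 genes (22.9%) were under 1 CPM in HEK-293T. Among genes of HEK-293T only, 592 (54.7%) were under 1 CPM in HT-1080 and 215 (19.9%) at 10 CPM or more. For genes of HT-1080 only with a median model length of 1500 bases or more, 76.2% were higher in HT-1080 with a median log2 fold change of 1.66, and for the shorter ones 69.2% with a median of 0.72.

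The 10 genes with the most models in HEK-293T and none in HT-1080 were led by SLIT2, which encodes a secreted guidance cue. SLIT2 had 35 models between chr4:20251903-20619166 (GRCh38, plus strand) in HEK-293T, 52 in the HEK-293T siHNRNPH1 pool and 1 in the HT-1080 siHNRNPH1 pool. Its short-read level was 326, 325 and 319.8 CPM in the HEK-293T libraries and 3.81, 3.32 and 4.53 CPM in the HT-1080 libraries. The groups lay far apart, with a log2 fold change of -6.12 (SE 0.08, edgeR adjusted p = 3.08e-12). ROBO1, the receptor for SLIT proteins, was also among the 10, with 17 models, at 135.9, 137.4 and 137.2 CPM in HEK-293T and 19.6, 15.0 and 17.9 CPM in HT-1080. Its log2 fold change was -2.71 (SE 0.08, edgeR adjusted p = 4.15e-10), so HT-1080 still held reads of it.

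Desmosome genes were also among the 10. DSP, the desmoplakin of desmosomes, had 22 HEK-293T models, at a mean of 272 CPM ± 5.57 (SD, n = 3) against 14.7 CPM ± 1.80 in HT-1080. DSC3, a desmosomal cadherin, had 23 models, at 127.7, 128.9 and 127.6 CPM in HEK-293T and at 0.037, 0.033 and 0 CPM in HT-1080, which is at or under 3 counts in all. CBS, which makes cystathionine from homocysteine, had 30 models and a log2 fold change of -3.90 (SE 0.06, edgeR adjusted p = 4.46e-12). Its levels were 180.0, 185.5 and 179.5 CPM in HEK-293T and 9.78, 9.90 and 10.9 CPM in HT-1080, and the HT-1080 siHNRNPH1 pool had 1 CBS model.

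EPHA7, an ephrin receptor, had 22 models in HEK-293T at 96.7 to 98.3 CPM and no count in any HT-1080 library. COCH, which encodes cochlin, had 24 models at 81.0 to 81.4 CPM, against 0, 0.066 and 0 CPM in HT-1080. NUP210, a nuclear pore protein, had 18 models and stood at 250 CPM ± 2.35 against 1.99 CPM ± 0.53 (SD, n = 3 each). ADAMTS1, a secreted protease, had 15 models and stood at 101 CPM ± 1.35 against 0.137 CPM ± 0.034. MECOM, a zinc-finger transcription factor, had 17 models with the smallest difference of the 10, at 41.0 CPM ± 0.39 against 11.9 CPM ± 1.20 and a log2 fold change of -1.53 (SE 0.07, edgeR adjusted p = 7.72e-09). In each of the 10 genes, the 3 HEK-293T libraries lay above the 3 HT-1080 libraries.

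The 10 genes with the most models in HT-1080 and none in HEK-293T were led by LAMB3. LAMB3, the beta subunit of laminin-332 in basement membranes, had 77 models between chr1:209614400-209653162 (GRCh38, minus strand), more than any other gene of 1 line. No HEK-293T pool had a LAMB3 model, and the HT-1080 siHNRNPH1 pool had 50. Its level was 1825, 1820 and 1772 CPM in HT-1080 and 0.081, 0.138 and 0.099 CPM in HEK-293T, a log2 fold change of 14.28 (SE 0.10, edgeR adjusted p = 4.65e-13). COL6A3, a chain of collagen VI, had 47 models, at 1506, 1159 and 1483 CPM against 0.036, 0.129 and 0.025 CPM. ITGA3, an integrin subunit that binds laminins, had 42 models, at 1193, 1090 and 1151 CPM against 6.87, 6.64 and 6.24 CPM. HT-1080 replicate 2 was the lowest of its group in both COL6A3 and ITGA3, yet remained far above HEK-293T.

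PLAU, the urokinase that activates plasminogen, had 36 models in HT-1080, at 2832, 2856 and 2842 CPM against 1.11, 1.20 and 0.909 CPM in HEK-293T. DHRS2, a short-chain dehydrogenase/reductase, had 51 models, at 4383 CPM ± 170.2 against 2.46 CPM ± 0.19 (SD, n = 3 each). AMIGO2, a cell adhesion protein, had 52 models, at 206, 200.2 and 199.96 CPM against 2.99, 2.73 and 3.05 CPM. AMIGO2 also had 1 model in the HEK-293T siHNRNPH1 pool. PHLDA1 had 39 models with a log2 fold change of 9.08 (SE 0.07) and COL13A1, a transmembrane collagen, had 38 with 5.31 (SE 0.07). OSMR, a receptor subunit for oncostatin M, had 34 models, at 310, 241.8 and 311 CPM against 2.59, 3.17 and 2.92 CPM. The HEK-293T siHNRNPH1 pool had 2 OSMR models. SH2B3, an adaptor of cytokine signalling, had 34 models, at 396 CPM ± 37.5 against 21.1 CPM ± 0.33.

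**Figure D5:**
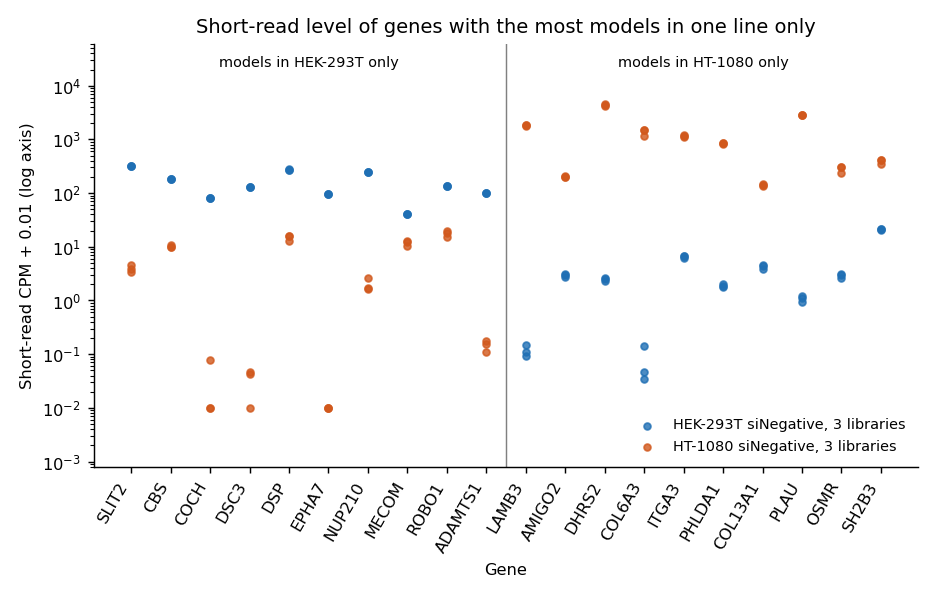
Short-read level (CPM plus 0.01, log axis) of the 20 genes with the most models in 1 siNegative pool and none in the other, HEK-293T genes on the left and HT-1080 genes on the right. Each point is 1 of the 3 siNegative libraries of a line, and in every gene the libraries of the line that has models lie above those of the other line.

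Promoter sequences of the genes of 1 line were read from RefSeq (GRCh38.p14), 250 bases before to 50 bases after each start, for 41 of the 56 such genes named here or in the lists that follow (17 of HEK-293T and 24 of HT-1080). The AP-1 motif TGANTCA, which reads the same on both strands, was in 7.95% of all 26246 promoters, in 4.18% of 6457 promoters of genes with models in both lines, in 4.39% of 935 of HEK-293T only and in 8.77% of 2041 of HT-1080 only (exact 95% interval 7.58 to 10.1). The HT-1080 share was thus above that of genes in both lines (3.71 to 4.70) and close to that of all promoters. The TATA box TATAAA, searched on the sense strand in the window from 40 to 15 bases before the start, was in 2.61% of all promoters, 1.18% of those in both lines, 2.14% of HEK-293T only and 2.69% of HT-1080 only. Median GC content was 58% over all promoters, 65.3% in both lines, 64.3% in HEK-293T only and 64.7% in HT-1080 only. Among the 41 promoters, 4 of the 24 of HT-1080 genes held the AP-1 motif upstream of the start and 4 the TATA box. None of the 17 of HEK-293T genes held either. With shares of 4.39% and 2.14% over the whole HEK-293T class, none among 17 promoters is no contrast between the lines. The AP-1 shares above also cover the 50 bases after the start, so they are not the share for upstream matches alone.

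The windows of 30 bases around these matches are printed 5′ to 3′ on the gene's strand, with the motif in capitals, because they belong to genes whose models and reads are those of HT-1080. The AP-1 matches of LAMB3 (chr1:209651423-209651452, minus strand), AMIGO2 (chr12:47080164-47080193, minus strand) and the chemokine gene CXCL8 (chr4:73740421-73740450, plus strand) begin 67, 223 and 137 bases before the annotated start.
LAMB3: gtcagccactcTGACTCAttcactttgggc
AMIGO2: gttgggcatctTGACTCAaggaccagagtc
CXCL8: aggaagtgtgaTGACTCAggtttgccctga
The TATA boxes of the annexin gene ANXA1 (chr9:73151822-73151851, plus strand), COL6A2 (chr21:46098068-46098097, plus strand) and CXCL8 (chr4:73740526-73740555, plus strand) begin 31, 32 and 31 bases before it.
ANXA1: cctttaaaatccTATAAAatcagaagccca
COL6A2: ggcggggcggggTATAAAgggggcggcgcc
CXCL8: gtagggtgatgaTATAAAaagccaccggag
Most models of LAMB3 and AMIGO2 did not begin near these starts, so their windows are those of the annotated start and not of most models. The models of the other 3 genes did not all begin there either. Within 100 bases of the annotated start began 5 of 77 HT-1080 models of LAMB3, 8 of 52 of AMIGO2, 8 of 13 of ANXA1, 7 of 12 of COL6A2 and 1 of 2 of CXCL8. The fourth TATA box, of DHRS2, is not printed because none of the 51 DHRS2 models began at that start, the nearest beginning 6246 bases downstream. CXCL8 was the only one of the 41 with both motifs. The fourth AP-1 match lay in the promoter of GATA3, whose reads were higher in HEK-293T. These are matches of letters in a fixed window, and binding was not measured.

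The mesenchymal and matrix genes leaned to the HT-1080 models. Of its 38 genes, 19 had models in HT-1080 only, 11 in both lines, 8 in neither and 0 in HEK-293T only. Of the 11254 genes with models in either pool, 2509 had them in HT-1080 only and 1143 in HEK-293T only. In the short reads 32 of the 36 tested genes were higher in HT-1080 and 3 higher in HEK-293T, with a median log2 fold change of 5.54. Over all tested genes, 40.8% were higher in HT-1080 and 45.8% higher in HEK-293T. MMP14, a membrane-bound metalloproteinase, had 22 HT-1080 models, at 1528, 1506 and 1496 CPM in its libraries against 2.91, 2.84 and 2.45 CPM in HEK-293T. AXL, a receptor tyrosine kinase, had 15 models, at 651, 592 and 636 CPM against 0.297, 0.353 and 0.289 CPM. The 3 genes that were higher in HEK-293T were COL1A1, COL3A1 and TAGLN, none of which had a model in either pool.

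Members of that list with models in both lines were represented unequally. CD44, the hyaluronan receptor, had 2 models of 1 intron chain in HEK-293T and 82 models of 38 chains in HT-1080, and the single HEK-293T chain was also in HT-1080. Its level was 1.66, 1.89 and 1.51 CPM in HEK-293T and 3129, 2876 and 3106 CPM in HT-1080. FN1, fibronectin, had 5 and 47 models, COL4A2, a basement membrane collagen chain, 1 and 46, and VIM, vimentin, 3 and 27. VIM stood at 293 CPM ± 5.60 in HEK-293T and 4233 CPM ± 105.5 in HT-1080 (SD, n = 3 each), so its models too were fewer where its reads were fewer.

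Neuronal genes leaned the other way in part. Of 15 listed genes, 5 had models in HEK-293T only (NEFM, INA, GAL, ELAVL2 and UCHL1), 1 in HT-1080 only (TUBB3), 2 in both (NEFL and MAP1B) and 7 in neither. NEFM, the medium neurofilament subunit, had 9 HEK-293T models, at 252, 270 and 252 CPM against 0, 0 and 0.033 CPM in HT-1080. UCHL1, a ubiquitin hydrolase of neurons, had 1 model, at 171.2, 170.8 and 173.1 CPM against no count in HT-1080. TUBB3, the neuronal beta-tubulin, had 2 HT-1080 models, at 97.2, 99.5 and 93.5 CPM against 4.58, 4.93 and 5.01 CPM in HEK-293T. In the short reads 8 of the 12 tested members were higher in HEK-293T and 4 in HT-1080, beside 45.8% and 40.8% of all tested genes.

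Kidney development genes did not mark HEK-293T by their models. Of 13 listed genes, 4 had models in both lines, 0 in HEK-293T only, 2 in HT-1080 only and 6 in neither, and CITED1 lies on chromosome X. In the short reads, 7 of the 11 tested members were higher in HEK-293T and 4 lower, beside 45.8% and 40.8% of all tested genes. The pair with HT-1080 models only, SIX2 and GATA3, both transcription factors, are genes where the assays parted. SIX2 stood at 21.6, 22.96 and 21.7 CPM in HEK-293T and 20.8, 23.1 and 23.1 CPM in HT-1080, values that overlap, with a log2 fold change of 0.27 (SE 0.06, edgeR adjusted p = 0.00138) that was not called with library size alone as the scaling. GATA3 stood at 11.6 CPM ± 0.29 in HEK-293T and 6.92 CPM ± 0.41 in HT-1080 (SD, n = 3 each) despite its single HT-1080 model, which the HT-1080 siHNRNPH1 pool lacked.

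Epithelial genes were few in both. Of 10, HEK-293T alone had models of CDH1 (1 model), the splicing factor gene ESRP2 (1) and OCLN (15), and HT-1080 alone of KRT8 (6). OCLN, the tight-junction protein occludin, stood at 36.8, 37.7 and 36.1 CPM in HEK-293T and 3.74, 3.55 and 4.53 CPM in HT-1080. The HT-1080 siHNRNPH1 pool had 3 OCLN models. CDH1, E-cadherin, was at 2.25 CPM in HEK-293T and had no count in HT-1080. KRT8, a keratin, stood at 5.74 CPM in HEK-293T and 405 CPM in HT-1080, and the HEK-293T siHNRNPH1 pool had 1 model of it. The epithelial list thus had no single direction, with 4 of 8 tested members higher in each line. Over all tested genes, 45.8% were higher in HEK-293T and 40.8% in HT-1080. None of 12 defining genes of blood, endothelium, liver, muscle, glia and islet cells had a model in either pool, and their summed level was at most 1.13 CPM in any library.

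At 9p21, MTAP and CDKN2B had 8 models each in HEK-293T and 0 in either HT-1080 pool. MTAP, which salvages methionine, stood at 79.2, 81.3 and 78.0 CPM in HEK-293T and 0.183, 0.266 and 0.462 CPM in HT-1080. CDKN2B and CDKN2A, inhibitors of cell-cycle kinases, stood at 16.2 CPM and 27.7 CPM in HEK-293T, and no HT-1080 library held a count of either. CDKN2A had no model in either pool.

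Most RNA-binding proteins on the lists had models in both lines, as did 67.5% of the 11254 genes with models in either. Of 6 fetal RNA-binding and stem genes, 5 had models in both and 1 in neither. LIN28B, a blocker of let-7 maturation, had 7 HEK-293T and 3 HT-1080 models, at 178 CPM ± 2.68 and 23.3 CPM ± 3.799. HMGA2, a chromatin protein regulated by let-7, had 10 and 32 models, at 124 CPM ± 2.49 and 843 CPM ± 69.3 (SD, n = 3 each). Of 18 splicing regulators, 14 had models in both, NOVA1 in HEK-293T only (4 models) and KHDRBS3 in HT-1080 only (1 model). NOVA1, a neuronal splicing factor, stood at 16.9, 16.3 and 16.5 CPM in HEK-293T and 0.183, 0.166 and 0.099 CPM in HT-1080. KHDRBS3 reads were higher in HEK-293T, at 20.7 CPM against 6.05 CPM, although its model was from HT-1080. HNRNPH1 had 36 models in HEK-293T and 15 in HT-1080, at 1111 and 619 CPM.

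Genes with exons known to switch between epithelial and mesenchymal cells gave models in both lines for 16 of 20. Of the 11254 genes with models in either pool, 67.5% had them in both. In the short reads 12 of the 20 were higher in HT-1080, 5 higher in HEK-293T and 3 not called. Over all tested genes, 40.8% were higher in HT-1080 and 45.8% in HEK-293T. The switching exons themselves were not singled out here. FGFR2 had models in HEK-293T only (1), and FGFR1 (10) and SCRIB (15) in HT-1080 only. FGFR1 is a further gene whose models and reads part, since its levels were 83.7, 81.9 and 84.5 CPM in HEK-293T and 76.9, 72.2 and 75.02 CPM in HT-1080. Its log2 fold change of 0.10 was not called (edgeR adjusted p = 0.0521) and turned to -0.16 with library size alone. In 3 other alternative fits FGFR1 was called higher in HT-1080. The HEK-293T siHNRNPH1 pool had 3 FGFR1 models. SCRIB, a polarity protein, stood at 66.9 CPM in HEK-293T, a level at which 86.6% of protein-coding genes had models there. Its reads were higher in HT-1080, at 112.9 CPM, with a log2 fold change of 1.01 (SE 0.06, edgeR adjusted p = 9.39e-08).

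For genes well covered in both lines, starts, ends and introns were mostly the same. With at least 10 multi-exon models in each pool, 1169 genes could be compared. The first exon with the most models was the same in 1085 of them (92.8%) and the last exon in 1137 (97.3%). The share of models with a given first exon differed by at least 25 percentage points in 149 genes, and by at least 50 points in 11. For last exons the counts were 65 and 2 genes. Of 21164 introns compared among models that span them, 331 (1.56%) in 185 genes differed by at least 25 points and 7 in 4 genes by at least 50 points.

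The clearest splice difference was a shift of 3 bases in TOR1AIP1, which encodes an inner nuclear membrane protein. All 11 HT-1080 models that span the site carried the intron chr1:179884770-179889312 (GRCh38, plus strand), and 0 of 13 HEK-293T models did. All 13 HEK-293T models used the same donor with an acceptor 3 bases further upstream, so that the next exon began 3 bases earlier. The siHNRNPH1 pools gave the same split, with the intron in 0 of 18 HEK-293T models and 10 of 10 HT-1080 models. The exact 95% intervals for the control pools were 0% to 24.7% and 71.5% to 100%, and they cover counting error only. The intron was chosen for its large difference between these pools, so that its intervals lie apart is no test.

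NUMA1, a protein that organises spindle poles, differed by a cassette exon of 42 bases at chr11:72012401-72012442 (minus strand). In HT-1080, 13 of 14 models carried the intron chr11:72012443-72012894 that joins this exon to the exon upstream of it. In HEK-293T, 0 of 16 did, and all 16 skipped the exon. With siHNRNPH1 the exon was less one-sided, with 5 of 23 HEK-293T models and 20 of 33 HT-1080 models carrying that intron. HEK-293T thus held the lower share in both pairs of pools.

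PPP4R3A, a regulatory subunit of protein phosphatase 4, differed near its start. The intron chr14:91509705-91510074 (minus strand, 370 bases) was spliced in 9 of 10 HEK-293T models and in 7 of 43 HT-1080 models, and 34 of the 43 had no intron there. In the siHNRNPH1 pools it was spliced in 4 of 9 HEK-293T models and 2 of 30 HT-1080 models, so the lines lay closer. The same region gave the first exon with the largest difference in this gene. A first exon with a median length of 805 bases, ending at 91509506, was in 38 of 50 HT-1080 models and 2 of 16 HEK-293T models. In the siHNRNPH1 pools that exon was in 31 of 33 and 8 of 33 models, again more in HT-1080.

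CALD1, the actin-binding protein caldesmon, differed in the start of 1 intron that ends at chr7:134928753 (plus strand). The start at 134891674 was used by 12 of 15 HEK-293T models and 3 of 12 HT-1080 models, and the start at 134867805 by 3 and 9. The exon before the first of these starts was the first exon of all 15 models that used it, and the exon before the other was internal in all 12, so the models differed in where they began as well as in the intron. The siHNRNPH1 pools were closer to each other, with 16 of 22 and 6 of 11 for the first start. At the FMC1-LUC7L2 locus the intron chr7:139360323-139376061 (plus strand) was in 12 of 27 HEK-293T models and 14 of 15 HT-1080 models, and in 21 of 49 and 11 of 14 models of the siHNRNPH1 pools. The locus joins neighbouring genes by transcription through both, and its models could also belong to either of them.

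In 3 further genes with a first-exon difference the HT-1080 models also had more exons. GALNT1, which starts mucin-type O-glycosylation, used the first exon ending at chr18:35581862 (plus strand) in 12 of 15 HT-1080 models and 1 of 11 HEK-293T models. Its models had a median of 12 exons in HT-1080 and 8 in HEK-293T. SUZ12, a core subunit of Polycomb repressive complex 2, used the first exon ending at chr17:31937520 (plus strand) in 7 of 10 and 1 of 11 models, with a median of 15.5 and 7 exons. CDH2, N-cadherin, used the first exon ending at chr18:28176963 (minus strand) in 10 of 10 and 8 of 21 models, with 16 and 12 exons. Whether the HEK-293T models that lack these exons are complete at the 5′ end was not tested. In the siHNRNPH1 pools the HT-1080 share was again the higher in each, at 62.5% against 16.7% for GALNT1 and 61.1% against 38.7% for CDH2.

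Last exons differed in fewer genes. GAPVD1, a regulator of RAB5, ended in the exon that starts at chr9:125362606 (plus strand) in 36 of 56 HEK-293T models and 2 of 15 HT-1080 models. The HT-1080 models ended mostly in an exon starting at 125342219, in 12 of 15 against 20 of 56, with a median length of only 16 bases. Whether models that stop there are complete at the 3′ end was not tested. In the siHNRNPH1 pools 35 of 70 HEK-293T and 5 of 20 HT-1080 models ended in the exon at 125362606, a smaller gap. TBC1D9B, a RAB GTPase-activating protein, ended in the exon starting at chr5:179864128 (minus strand) in 18 of 18 HEK-293T and 6 of 13 HT-1080 models. The siHNRNPH1 pools did not repeat that gap, with 87.9% of 33 and 81.6% of 38 models. GAS5, a noncoding host gene of small nucleolar RNAs, ended in the exon starting at chr1:173864075 (minus strand) in 4 of 16 HEK-293T and 11 of 15 HT-1080 models, and 7 of those 15 HT-1080 models were under 1500 bases, against 0 of 16. The GAS5 gap was smaller in the siHNRNPH1 pools, with 11 of 23 HEK-293T and 10 of 14 HT-1080 models. MTHFD1L, a mitochondrial folate enzyme, kept the exon starting at chr6:151101526 (plus strand) in 11 of 11 and 7 of 13 models. Its gap was smaller in the siHNRNPH1 pools, with 13 of 13 and 6 of 7 models. ZNF655, a zinc-finger gene, had the exon starting at chr7:99563863 (plus strand) in 0 of 11 and 6 of 13 models, and in 5.26% and 7.69% of models in the siHNRNPH1 pools.

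Within genes, HEK-293T models were usually the longer. Of the 1169 genes, 942 (80.6%) had the longer median in HEK-293T and 224 in HT-1080, with a median log2 length ratio of -0.08 (HT-1080 over HEK-293T, quartiles -0.22 and -0.01). A difference of at least 1.5-fold occurred in 44 genes, all longer in HEK-293T. For models whose intron chain was in both pools, the medians were 3108 and 2872 bases, closer than the 3406 and 2552 bases of chains in 1 pool.

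The 5 genes with the largest gap included some whose HT-1080 models were mostly short. HMGN1, a nucleosome-binding protein, had a median of 3360 bases in HEK-293T and 1377.5 in HT-1080, where 6 of 10 models were under 1500 bases against 3 of 25. The HT-1080 siHNRNPH1 pool had a median of 3464 bases for it, so this gap was not repeated. RPL3, a ribosomal protein, had 2867 and 1231.5 bases, with 2 of 11 and 9 of 14 models under 1500 bases, and 2612 and 1267 bases in the siHNRNPH1 pools. KRR1, a ribosome assembly factor, had 3129 and 1378.5 bases, and 2402 and 1477 bases in the siHNRNPH1 pools. PPP6C, a phosphatase catalytic subunit, had 3557 and 1672 bases, with a last exon of 2693 and 926 bases at the median. Its gap was smaller in the siHNRNPH1 pools, at 3529 and 2379 bases. ATP6V1C1, a subunit of the vacuolar proton pump, had 4846.5 and 2465 bases with 0 models under 1500 bases in either pool, a median of 13 exons in both, and a last exon of 2545 and 1383 bases. It repeated in the siHNRNPH1 pools, at 4874.5 and 2468.5 bases.

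Genes longer in HT-1080 had smaller gaps. XPO6, an export receptor for actin, had a median of 3285 bases for HEK-293T models and 4333 for HT-1080 models, with 18 and 24 exons, and 3295 and 4321 bases in the siHNRNPH1 pools. GIGYF2, a translation repressor, had 3438 and 4269 bases, POM121, a nuclear pore anchor, 3517.5 and 4339.5 bases, and LETM1, a mitochondrial inner membrane protein, 3030 and 3677.5 bases. In the siHNRNPH1 pools GIGYF2 had 3467 and 3426.5 bases and LETM1 3689 and 3675.5 bases, so neither of these gaps was repeated there. POM121 had 4282 and 4712 bases in those pools, a smaller gap.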

How the data were processed

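Members and gene lists were chosen with earlier results of these data known. The deposited IsoSeq files list exon coordinates (GRCh38.p13 is the build in the submitters' processing notes, with no role given). The authors deposited expected counts of transcripts for the short reads, made with RSEM per the submitters' processing notes. Its version and aligner are not given in the sources used here. They were added up within each gene, then rounded. CPM is a count scaled to the library's total, and fold changes use TMM scaling. edgeR 4.0.16 (R 4.3.3, filterByExpr, quasi-likelihood, robust, two-sided, Benjamini-Hochberg threshold 0.05) compared the 6 siNegative libraries. Of 200 simulated 3-fold genes, 91.5% were recovered among 19232, and 12 of the 195 calls were unchanged genes. In the data 86.6% of genes were called, far more than were changed in the simulation. The simulation therefore does not give the error rate of the comparison between the lines. Pairs of libraries of 1 line differed beyond sampling noise (chi-square per degree of freedom 1.67 to 15.0). The highest values, 15.0 and 14.8, were the pairs of HT-1080 replicate 2 with replicates 1 and 3. HT-1080 replicates 1 and 3 gave 1.67, and the HEK-293T pairs 3.37 to 5.05.

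RefSeq spans (GRCh38.p14, 30271 genes) served for names only: a model took the gene on its strand with the highest overlap divided by union, and 1965 protein-coding genes without a listed strand took that of most of their models. Introns, first exons and last exons were matched exactly. Named genes were the 10 per line with the most multi-exon models and none in the other pool, the 5 with the largest difference in share for first exons, last exons and introns, the 5 with the largest length ratio per direction, and list members with models in 1 line. Intervals are exact Clopper-Pearson at 95% and cover counting error only, and models are not reads. Alternatives tried were other scalings, filters, DESeq2 1.42.0, matching rules, model minimums and left-out replicates. 0 columns were unmatched. Some genes that met these rules are not reported here.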

Additional observations from a re-analysis of the deposited data

How the results depend on the processing

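The order of the shared fractions (loci, introns, last exons, first exons, chains) was the same in the 3 alternatives run for all 5 kinds of feature, except that with at least 2 models the HT-1080 list shared more introns than loci. The share of the HEK-293T list was no longer the higher for introns, first exons and chains when either pool of a line counted, nor for chains with models of at least 1500 bases. Shares are given for the HEK-293T list and then the HT-1080 list. With at least 2 models in the own pool, the other line held 91.0% and 80.9% of loci, 89.1% and 83.9% of introns, 82.2% and 72.4% of first exons, 86.3% and 76.5% of last exons, 76.9% and 69.2% of intron chains. With a feature counted for a line when either of its IsoSeq pools had it, the shares were 84.1% and 78.1% of loci, 73.5% and 75.6% of introns, 52.5% and 56.7% of first exons, 63.8% and 63.6% of last exons, 39.3% and 46.9% of intron chains. With models of at least 1500 bases only, an alternative chosen after seeing the data, they were 82.8% and 78.5% of loci, 77.0% and 75.3% of introns, 54.8% and 54.3% of first exons, 66.9% and 65.4% of last exons, 42.9% and 43.9% of intron chains. Positions within 10 bases gave 78.5% and 73.3% of introns, and multi-exon models only gave 86.1% and 74.2% of loci. Among HEK-293T features of at least 2 models absent from the other control pool, recurrence in the same line and in the other line was 94.0% and 23.6% for loci, 90.1% and 27.4% for introns, 84.8% and 26.1% for first exons, 90.2% and 23.5% for last exons, 81.1% and 26.8% for intron chains. Among HT-1080 features of at least 2 models absent from the other control pool, recurrence in the same line and in the other line was 92.3% and 29.0% for loci, 90.4% and 27.8% for introns, 84.8% and 29.4% for first exons, 88.2% and 29.2% for last exons, 80.2% and 30.9% for intron chains. Median lengths were 3108 and 2872 bases for intron chains in both pools and 3264 and 2893 bases with models of at least 1500 bases, with HEK-293T longer each time. Genes of 1 line only fell to 347 and 990 when at least 3 models were required, and were 1334 and 1824 with models of at least 1500 bases. The median short-read log2 fold change of those genes was -3.92 and 1.71 with at least 3 models, -2.29 and 1.42 with models of at least 1500 bases, and -3.42 and 0.89 with library size alone, which moved the median of all genes from -0.10 to -0.36. Leaving out 1 library gave -3.25 to -3.16 and 1.07 to 1.15, and the value nearest 0 for HT-1080 came without HT-1080 replicate 2. Of the 17125 genes called between the lines, 10519 reached a log2 fold change of at least 1 in size, and other fits called 16989 (DESeq2), 17289 (library size alone), 19864 (no filter) and 15610 to 18004 (1 library left out). Replicate numbers did not pair the libraries across lines (correlations -0.03, -0.10 and -0.05, none positive), and with the replicate number as a block 16715 genes were called, with medians of -3.17 and 1.14 for genes of 1 line only. The call or direction of 2 of 56 named genes of 1 line changed in an alternative fit. These were FGFR1, at -0.16 with library size alone and -0.040 with no filter, and SIX2, which was not called in either of these. FGFR1 was called higher in HT-1080 in 3 other fits. Named genes near 0 in 1 line had to differ, so that their calls held is no support. The causes of these shifts were not tested, and the depth of the IsoSeq pools, which limits what can be missed, is unknown.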
